A study of Rattus norvegicus with 6 samples.

Results

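Superoxide dismutases, glutathione peroxidases and peroxiredoxins, the enzymes that remove superoxide and peroxides, were followed in renal tissue of rats with and without chronic kidney disease (CKD). The set was named by symbol and held 10 genes, Sod1, Sod2, Sod3, Gpx1, Gpx3, Gpx4, Prdx1, Prdx3, Prdx5 and Prdx6, of 31368 in the deposited table. All 10 had a single row in the table and all 10 were among the 15371 genes with enough counts to be tested. The tissue came from wild-type Sprague-Dawley rats, all male, in which a CKD model was set up at an age of 8 weeks, and gave 6 libraries, 3 labelled Sham (controls) and 3 labelled CKD. The procedure that produced the disease, and what the sham animals underwent, are not given in the sources used here. Nothing in the labels ties each library to its own animal, so the spread behind each p-value is that between libraries and could be technical.

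Superoxide, which leaks from the respiratory chain or is made by oxidases, is turned into hydrogen peroxide by superoxide dismutases. Sod1 works in the cytosol, Sod2 in the mitochondrial matrix and Sod3 outside the cell, bound to the matrix and to vessel walls. Hydrogen peroxide and lipid peroxides are then reduced by glutathione peroxidases, which draw on glutathione and in the case of Gpx1, Gpx3 and Gpx4 carry selenocysteine, and by peroxiredoxins, most of which draw on thioredoxin. Catalase breaks down hydrogen peroxide in peroxisomes. The proximal tubule of the kidney is the main source of the Gpx3 protein of blood plasma.

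Total counts ran from 15918035 to 17503644 per library. Sham 2 stood apart from the other libraries: genes of the mitochondrial genome took 37.9% of its counts (95% exact binomial interval 37.88 to 37.93, counting error only), against at most 15.3% in each other library. The summed level of 12 proximal tubule markers was 9110 CPM (counts scaled to library size with TMM factors) in Sham 2, 25540 and 29607 in Sham 1 and Sham 3, and 13967 to 22049 in CKD, and all 12 markers were detected. In bulk tissue, fewer cells of a type and less RNA per cell cannot be told apart. Sham 2 was the highest library for 8 distal tubule and collecting duct markers, at 5428 CPM against 651 and 1904 in Sham 1 and Sham 3 and 1047 to 1191 in CKD. It was also the highest for 5 podocyte markers, at 755 CPM against 201 and 595 in the other Sham libraries and 336 to 625 in CKD. For genes discussed singly, the fold change without Sham 2 is therefore given where it bears on the result. Sham 1 departed in other ways, being the lowest library for the distal and podocyte lists. It was the highest for 5 thick ascending limb markers, at 9637 CPM. Sham 2 and Sham 3 had 6288 and 3411 CPM of these, and CKD had 1545 to 3831. Leaving out Sham 1 moved the median of the members the other way from leaving out Sham 2, as given below.

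None of the 10 enzymes passed the threshold. By edgeR's quasi-likelihood test, 0 of 10 reached an adjusted p of 0.05, and 0 had an unadjusted p under 0.05, where 3.82% of all genes tested passed the former (2.67% higher and 1.15% lower in CKD) and 23.8% the latter. DESeq2 and limma-voom also called 0. Without Sham 2, edgeR called only 2 of all 15756 genes tested at an adjusted p of 0.05, so its 0 members called say little. Of the 10 members, 5 then had an unadjusted p under 0.05, where 27.0% of all genes did. In limma-voom with library weights it was likewise 5 of 10, where 27.9% of genes did. The median log2 fold change (CKD minus Sham) of the members was -0.42, beside -0.01 over all genes tested, with 8 of 10 values negative. Without Sham 2 the median was -0.69, with 9 of 10 negative. It was -0.29 without Sham 1 and -0.50 without Sham 3, each with 7 of 10 negative. With all 6 libraries, only Sod3 and Gpx3 had positive values. Scaling by library totals alone moved the median of all genes to 0.41 and that of the members to -0.01, and made the values of Gpx1, Prdx1 and Prdx5 positive as well. All 10 of their 95% intervals held 0, and the smallest unadjusted p in edgeR was that of Sod1 (0.0562).

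**Figure D1:**
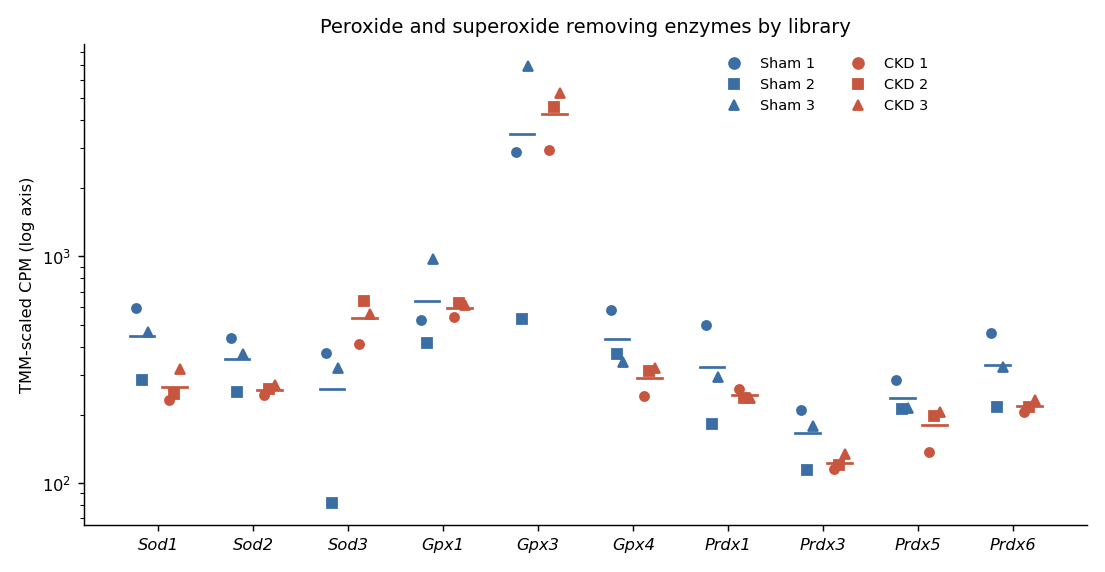
TMM-scaled CPM (log axis) of the 10 enzymes in each library, Sham in blue and CKD in red, with replicate numbers by symbol and group means as bars. Gpx3 spanned 530.0 to 6924 CPM within Sham alone, and Sod3 had all CKD libraries above all Sham libraries.

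The fold changes of the superoxide dismutases differed in sign, and none passed the threshold. Sod3, the extracellular copper-zinc enzyme, stood at 376, 81.7 and 321 CPM in Sham 1, 2 and 3 and at 409, 638 and 554 CPM in CKD 1, 2 and 3. Every CKD library was thus above every Sham library, although CKD 1 was only just above Sham 1. On the log2 scale the difference, CKD minus Sham, was 1.04 ± 0.54 (SE; 95% interval -0.21 to 2.29; edgeR FDR-adjusted p = 0.282), and without Sham 2 it was 0.58 (edgeR FDR-adjusted p = 0.226). Sod3 was the single member with CKD above Sham in all libraries, where 18.8% of all genes tested had that order. The order also held without Sham 2 and with scaling by library totals alone, in which 25.6% and 39.9% of genes had it.

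Sod1, the cytosolic copper-zinc enzyme, had 591, 284 and 465 CPM in Sham 1, 2 and 3 against 232, 246 and 317 CPM in CKD 1, 2 and 3. Sham 2 lay inside the CKD range and the other Sham libraries lay above it. For Sod1 this difference was -0.75 ± 0.33 (95% interval -1.53 to 0.03; edgeR FDR-adjusted p = 0.222), or -1.03 without Sham 2 (edgeR FDR-adjusted p = 0.0738). Sod2, the manganese enzyme of mitochondria, had 435, 252 and 370 CPM in Sham against 244, 261 and 270 CPM in CKD, with Sham 2 again inside the CKD range. Its log2 fold change was -0.45 ± 0.28 (edgeR FDR-adjusted p = 0.364), or -0.68 without Sham 2 (edgeR FDR-adjusted p = 0.0959). Without Sham 1 the values of Sod1 and Sod2 were -0.54 and -0.31.

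A ratio of the counts of 2 genes within a library does not depend on how libraries are scaled. There were 0.636, 0.288 and 0.689 Sod3 counts for each Sod1 count in Sham 1, 2 and 3, and 1.76, 2.59 and 1.75 in CKD 1, 2 and 3. The ratio was below 1 in all Sham libraries and above 1 in all CKD libraries, a 3.98-fold difference between the group means on the log scale. The exact two-sided permutation test gave p = 0.1, the smallest that 3 against 3 libraries allow, and an adjusted p = 0.533 over 8 ratios. Leaving out any single library kept the log2 difference of 1.99 between 1.59 (without Sham 2) and 2.22. The ratio of Sod1 to Sod2 was 1.36, 1.13 and 1.26 in Sham and 0.953, 0.944 and 1.18 in CKD, with CKD 3 inside the Sham range (exact permutation p = 0.2, adjusted p = 0.533). The other 6 ratios had exact permutation p-values from 0.2 to 0.9.

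**Figure D2:**
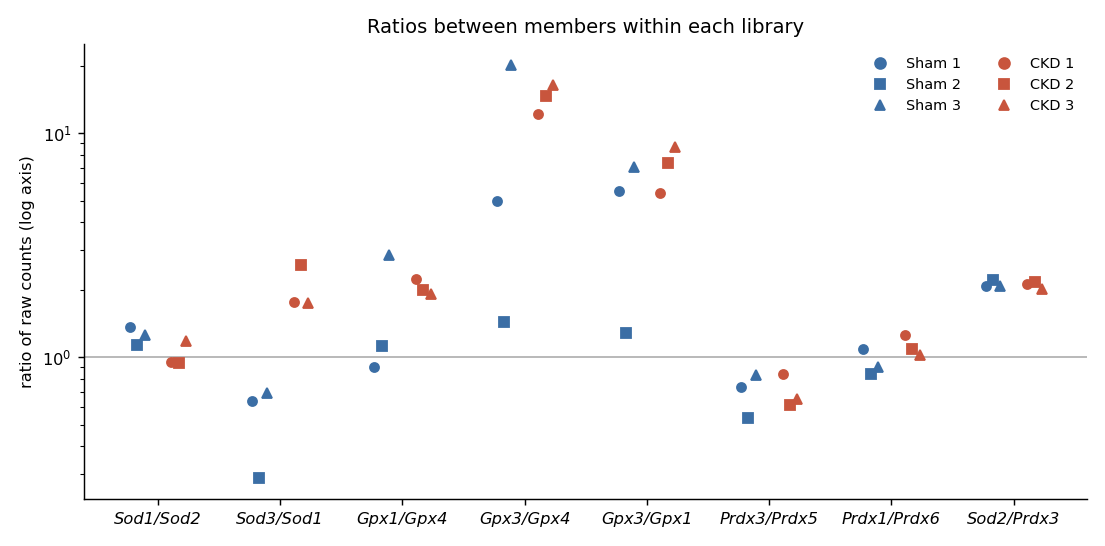
Ratio of raw counts of 2 members within each library (log axis), Sham in blue and CKD in red. Sod3/Sod1 was the only ratio whose groups did not overlap, and Sod2/Prdx3 stayed between 2.02 and 2.21 in all libraries.

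The levels of Sod3 can be read beside those of other cell types. The summed level of 8 fibroblast and mural cell markers was 511, 205 and 303 CPM in Sham 1, 2 and 3 and 1158, 1066 and 822 CPM in CKD. For 8 macrophage markers it was 377, 137 and 264 CPM in Sham and 1189, 1467 and 598 CPM in CKD. In both lists no marker was at 0 in all Sham libraries, and 1 of 8 and 3 of 8 markers rose by the edgeR test. Of the fibroblast and mural markers, Acta2 (log2 fold change 0.09) and Myh11 (-0.59) did not rise with the sum, while Tagln (1.26) did. Sham 2 was the lowest Sham library for both lists, for the proximal tubule list and for Sod3. Per CPM of summed fibroblast and mural markers there were 0.735, 0.399 and 1.06 CPM of Sod3 in Sham 1, 2 and 3 and 0.353, 0.599 and 0.675 CPM in CKD 1, 2 and 3. Per CPM of macrophage markers there were 0.997, 0.594 and 1.22 CPM in Sham and 0.344, 0.435 and 0.927 CPM in CKD. The groups overlapped on both scales. Per CPM of proximal tubule markers there were 0.0147, 0.00897 and 0.0108 CPM in Sham and 0.0293, 0.0378 and 0.0252 CPM in CKD, with every CKD library above every Sham library. These ratios were formed after the values were seen. For 6 endothelial markers the sum was 406, 407 and 517 CPM in Sham and 378, 307 and 418 CPM in CKD. That list thus did not rise with Sod3. Which cells carried the Sod3 counts was not tested.

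**Figure D3:**
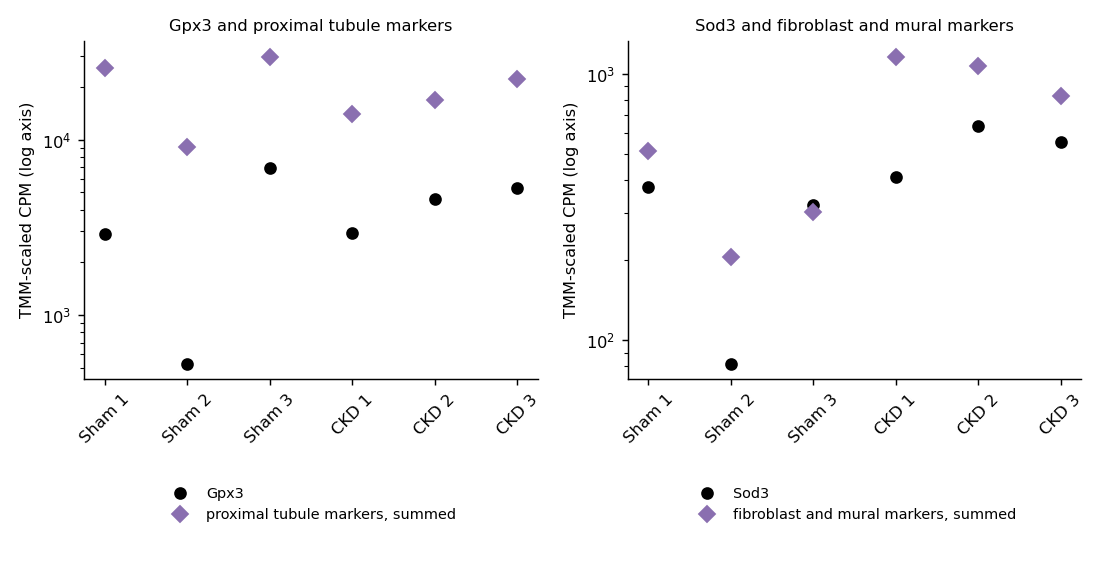
TMM-scaled CPM (log axis) per library of Gpx3 beside the sum of 12 proximal tubule markers (left) and of Sod3 beside the sum of 8 fibroblast and mural cell markers (right). Sham 2 had the lowest value of all 4 series.

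Gpx3, the secreted plasma glutathione peroxidase, was among the most abundant nuclear transcripts. The deposited table gives this row the biotype lncRNA, while its description names the Gpx3 protein and the other 9 members are marked protein coding. Its counts ranked 3 among nuclear genes in Sham 3 and between 2 and 5 in the CKD libraries, but 24 in Sham 1 and 112 in Sham 2. Levels were 2900, 530.0 and 6924 CPM in Sham 1, 2 and 3 and 2937, 4577 and 5275 CPM in CKD 1, 2 and 3. The highest and the lowest of the 6 libraries were both Sham, 13.1-fold apart, and all CKD libraries lay between them. The log2 fold change of 0.30 ± 0.81 (95% interval -1.59 to 2.20; edgeR FDR-adjusted p = 0.854) was -0.24 without Sham 2 and 1.26 without Sham 3. The interval thus held changes of more than 2-fold in either direction. Per CPM of summed proximal tubule markers there were 0.114, 0.0582 and 0.234 CPM of Gpx3 in Sham 1, 2 and 3 and 0.210, 0.271 and 0.239 CPM in CKD, so Sham 1 and Sham 2 were lowest on that scale too. This ratio was formed after the values were seen, and the part of the proximal tubule in the Gpx3 values was not tested.

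Gpx1, the glutathione peroxidase of cytosol and mitochondria, had 524, 414 and 977 CPM in Sham and 541, 622 and 611 CPM in CKD. Sham 3 was the highest library for Gpx1 as for Gpx3. Its log2 fold change was -0.11 ± 0.38 (95% interval -0.99 to 0.77; edgeR FDR-adjusted p = 0.89), or -0.38 without Sham 2, and its sign turned without Sham 3 (0.27) and with library totals alone (0.30). Gpx4, which reduces lipid peroxides within membranes and guards against ferroptosis, had 580, 370 and 343 CPM in Sham and 241, 312 and 320 CPM in CKD. All CKD libraries lay below all Sham libraries for Gpx4, by a small margin between Sham 3 and CKD 3. Its log2 fold change was -0.57 ± 0.30 (95% interval -1.27 to 0.14, edgeR FDR-adjusted p = 0.2997), or -0.71 without Sham 2 (edgeR FDR-adjusted p = 0.19). Without Sham 1 the value of Gpx4 was -0.34, and the groups overlapped with library totals alone.

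The ratio of Gpx3 to Gpx4 was 5, 1.43 and 20.2 in Sham and 12.2, 14.7 and 16.5 in CKD. That of Gpx3 to Gpx1 was 5.53, 1.28 and 7.09 in Sham and 5.42, 7.36 and 8.63 in CKD. The difference between group means on the log scale had exact permutation p = 0.4 and 0.3 (adjusted p = 0.533 for each). Sham 2 was lowest in both ratios. The CKD libraries lay closer to each other than the Sham libraries did, a difference in spread that was not tested. In all 3 glutathione peroxidases the spread between Sham libraries exceeded that between CKD libraries, with coefficients of variation of 93.7% against 28.2% for Gpx3, 46.7% against 7.41% for Gpx1 and 30.2% against 14.9% for Gpx4. The same held for 9 of 10 members, Prdx5 being the exception, and Sham 2 was the lowest Sham library for 9 of 10, Gpx4 being the exception. The shares of all genes with these orders were not computed, so neither count marks a trait of the members. Over the whole table, pairs of Sham libraries differed by a chi-square per degree of freedom of 150.6 to 355.6. For pairs of CKD libraries it was 32.9 to 72.6.

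Of the peroxiredoxins, Prdx1 is the abundant cytosolic enzyme. It had 498, 181 and 293 CPM in Sham and 260, 236 and 237 CPM in CKD, so that the CKD libraries lay within the Sham range. Prdx1 had a fold change of -0.41 ± 0.37 on the log2 scale (edgeR FDR-adjusted p = 0.548), -0.74 without Sham 2 and 0.002 without Sham 1. The table also lists Prdx1l1, whose description names the Prdx1 protein, with 15.3% to 20.5% as many counts as Prdx1 in each library. Reads of near-identical copies can be split between such rows, so the level of Prdx1 is uncertain. Prdx6, which uses a single cysteine and also has phospholipase activity, had 460, 217 and 324 CPM in Sham and 206, 217 and 232 CPM in CKD, with Sham 2 inside the CKD range. Its log2 fold change was -0.61 ± 0.31 (95% interval -1.34 to 0.12, edgeR FDR-adjusted p = 0.281), or -0.88 without Sham 2 (edgeR FDR-adjusted p = 0.0831). Without Sham 1 the value of Prdx6 was -0.35.

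Prdx3, the thioredoxin-dependent peroxidase of the mitochondrial matrix, had 209, 114 and 178 CPM in Sham and 115, 120 and 134 CPM in CKD. Sham 2 was just below the lowest CKD library, and the other Sham libraries were above all of CKD. This gave a log2 fold change of -0.44 ± 0.26 (95% interval -1.05 to 0.18, edgeR FDR-adjusted p = 0.354), or -0.69 without Sham 2 (edgeR FDR-adjusted p = 0.0873). Without Sham 1 the value of Prdx3 was -0.28. Prdx3 and Sod2, which share the mitochondrial matrix, kept nearly the same proportion throughout. There were 2.08, 2.21 and 2.08 Sod2 counts for each Prdx3 count in Sham and 2.11, 2.17 and 2.02 in CKD, while the CPM of each gene varied 1.79-fold (Sod2) and 1.83-fold (Prdx3) across the 6 libraries. The difference between groups in this log2 ratio was -0.02 (exact permutation p = 0.7, adjusted p = 0.8).

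Because these 2 genes held the steadiest ratio, the 250 bases before their annotated starts are shown, from RefSeq on GRCr8 and read on the gene's strand. Capitals mark GC boxes (GGGCGG on either strand), the binding motif of the Sp1 family. The Sod2 window is chr1:50050169-50050418 and the Prdx3 window chr1:270000112-270000361, both on the minus strand.
Sod2: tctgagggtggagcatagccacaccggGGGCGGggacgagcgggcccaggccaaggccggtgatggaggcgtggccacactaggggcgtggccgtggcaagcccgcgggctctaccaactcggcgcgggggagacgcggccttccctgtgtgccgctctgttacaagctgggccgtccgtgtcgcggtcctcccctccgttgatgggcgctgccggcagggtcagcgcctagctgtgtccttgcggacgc
Prdx3: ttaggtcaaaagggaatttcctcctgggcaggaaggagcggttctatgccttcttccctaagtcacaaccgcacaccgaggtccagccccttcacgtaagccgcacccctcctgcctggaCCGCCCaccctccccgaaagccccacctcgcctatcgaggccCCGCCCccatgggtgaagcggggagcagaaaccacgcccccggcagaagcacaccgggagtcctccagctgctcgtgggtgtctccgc
The Sod2 window held 1 GC box and the Prdx3 window 2, and neither held a TATAAA or CCAAT motif. All 8 members that the RefSeq table covers had a GC box in at least 1 window (Gpx4, with 3 annotated starts, lacked it before the most downstream start), against 30.5% of 33469 windows of the same length. Their G+C content was 55.2% to 71.6%, against a median of 51.2%. The count of 8 is by gene, while the share of 30.5% is by window. The GC box was thus not particular to Sod2 and Prdx3, and a link between these motifs and the steady ratio was not tested.

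The antioxidant response element, bound by NRF2, has the core TGACNNNGC. On either strand it was present in 10.1% of all windows, and among the members in those of Sod2 and Prdx1. The Prdx1 window, chr5:135383656-135383905 on the plus strand, is shown with this core in capitals as it is a well-known target of NRF2.
Prdx1: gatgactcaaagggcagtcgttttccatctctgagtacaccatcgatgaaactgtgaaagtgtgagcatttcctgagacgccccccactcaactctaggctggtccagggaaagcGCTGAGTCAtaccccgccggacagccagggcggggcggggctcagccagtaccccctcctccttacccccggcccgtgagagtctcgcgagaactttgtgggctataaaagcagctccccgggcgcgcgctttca
The match began 135 bases before the start of Prdx1 and 35 bases before that of Sod2. A match describes letters in the window and not a bound site.

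Prdx5, a peroxiredoxin of mitochondria, peroxisomes and cytosol, had 284, 213 and 214 CPM in Sham and 138, 197 and 206 CPM in CKD. All CKD libraries lay below all Sham libraries, with CKD 3 close to Sham 2. For this row it was -0.39 ± 0.26 on the log2 scale (95% interval -0.996 to 0.209; edgeR FDR-adjusted p = 0.394), -0.50 without Sham 2 and 0.02 with library totals alone. The identity of this row is mixed. It runs on chromosome 1 from 204099826 to 204114268 in the deposited coordinates, whose build is uncertain, and contains the whole of Esrra (204104101 to 204114268) on the same strand. Its description names the nuclear receptor ERR1, the product of Esrra, while the separate Esrra row had only 102 to 191 counts per library against 2855 to 4252 in the Prdx5 row. Counts from both genes may therefore stand in the Prdx5 row, and it was the single member whose description did not name its own protein. Prdx3/Prdx5 ratios were 0.738, 0.535 and 0.829 in Sham and 0.837, 0.611 and 0.648 in CKD (exact permutation p = 0.9, adjusted p = 0.9).

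Gpx4 and Prdx5 were the only members with all CKD libraries below all Sham libraries, 2 of 10, where 12.4% of all genes tested had that order. Without Sham 2 the count was 7 of 10, against 20.7% of genes, and the 5 added were Sod1, Sod2, Prdx1, Prdx3 and Prdx6. With library totals alone it was 0 of 10, against 3.81% of genes. These comparisons without Sham 2 and with library totals were added after the values were seen.

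**Figure D4:**
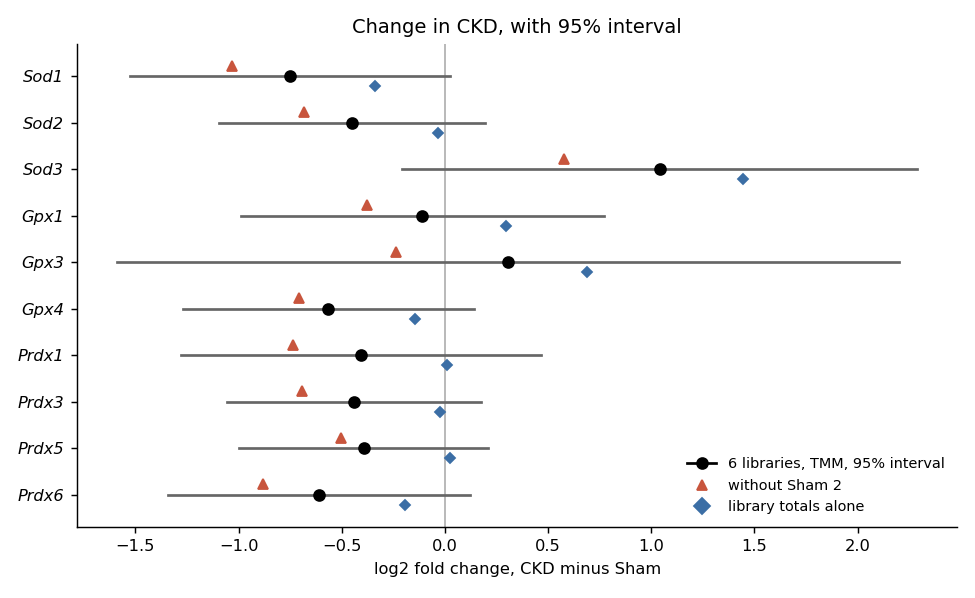
log2 fold change (CKD minus Sham) of each member with its 95% interval (black), without Sham 2 (red triangles) and with library totals alone (blue diamonds). All 10 intervals held 0. Leaving out Sham 2 moved every value down and library totals moved every value up.

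Compared per kilobase of the deposited gene length, the order of levels was led by Gpx3 in 5 of 6 libraries, at 1270 ± 1189 CPM per kb in Sham and 1568 ± 442 in CKD (mean ± SD, n = 3). Gpx1 followed with 707 ± 330 and 655 ± 48.6 CPM per kb, and was the highest in Sham 2. Given their spread, Gpx3 and Gpx1 did not separate in Sham. Gpx4 had 377 ± 114 and 255 ± 37.9 and Prdx1 had 337 ± 167 and 254 ± 14.0 CPM per kb, levels that did not differ beyond their spread. Sod1 had 245 ± 84.7 CPM per kb in Sham and 146 ± 25.04 in CKD, while Sod3 had 128 ± 77.3 and 264 ± 57.4. Sod3 thus stood below Sod1 in all Sham libraries and above it in all CKD libraries on this scale as well. Prdx3, Sod2, Prdx5 and Prdx6 were lowest, between 34.9 and 109 CPM per kb as group means. Prdx6 was last in all 6 libraries, with a deposited length of 6267 bases, and the length of the Prdx5 row takes part in the uncertainty above.

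Other members of these families and catalase were described from a list of 9 genes. Gpx5 and Gpx6 had 0 counts in every library. Of the 7 tested 0 passed in edgeR, while 3 had an unadjusted p under 0.05, where 23.8% of all genes tested did. Cat, the peroxisomal catalase, had 2061, 679 and 1769 CPM in Sham and 597, 649 and 1205 CPM in CKD. Sham 2 lay among the CKD libraries, and the log2 fold change was -0.88 ± 0.51 (edgeR FDR-adjusted p = 0.339), or -1.26 without Sham 2. With 1 library left out it ranged from -1.27 to -0.61. Per CPM of summed proximal tubule markers there were 0.0807, 0.0746 and 0.0598 CPM of Cat in Sham. In CKD there were 0.0428, 0.0385 and 0.0546, each below every Sham library. This ratio too was formed after the values were seen, and the part of the proximal tubule was not tested. Gpx8, a peroxidase of the endoplasmic reticulum, had 6.001, 6.57 and 2.89 CPM in Sham and 11.5, 14.5 and 7.48 CPM in CKD. Gpx7, of the same compartment, had 3.07, 4.26 and 3.38 CPM in Sham and 7.43, 6.66 and 5.43 CPM in CKD. In both, all CKD libraries were above all Sham libraries, an order that 18.8% of all genes tested had. The log2 fold changes of Gpx8 and Gpx7 were 1.11 ± 0.41 and 0.87 ± 0.33 (edgeR FDR-adjusted p = 0.157 and 0.164), or 1.28 and 0.97 without Sham 2. Gpx2, the epithelial glutathione peroxidase, had 10.002, 8.10 and 15.8 CPM in Sham and 42.2, 29.7 and 9.73 CPM in CKD, with CKD 3 inside the Sham range. Its log2 fold change was 1.27 ± 0.52 (edgeR FDR-adjusted p = 0.194), or 1.03 without Sham 2. Prdx4, the secretory pathway peroxiredoxin, had a log2 fold change of 0.41 ± 0.25, Prdx2, abundant in red cells, one of 0.02 ± 0.22, and Ccs, the copper chaperone of Sod1, one of -0.19 ± 0.25 (edgeR FDR-adjusted p = 0.367, 0.961 and 0.69).

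Genes of the supply and recycling of thiols, NADPH and selenium, and of glutathione breakdown, were described from 4 lists. Of 13 genes of thioredoxin, glutaredoxin and their reductases, 1 fell and 0 rose (median log2 fold change -0.26, or -0.57 without Sham 2 and -0.51 without CKD 3). The gene that fell was Srxn1, sulfiredoxin, which restores over-oxidised peroxiredoxins. Srxn1 had 18.8, 7.96 and 16.2 CPM in Sham and 4.92, 2.93 and 2.51 CPM in CKD, without overlap. It fell by 2.05 ± 0.43 on the log2 scale (edgeR FDR-adjusted p = 0.0484), and the value was -2.38 without Sham 2 (edgeR FDR-adjusted p = 0.0552). With 1 library left out, the value of Srxn1 ranged from -2.39 to -1.85. Txnrd1, the cytosolic thioredoxin reductase, had 349, 327 and 600.2 CPM in Sham and a narrow 189 to 194 CPM in CKD (log2 fold change -1.16 ± 0.31, edgeR FDR-adjusted p = 0.0746, or -1.35 and 0.0617 without Sham 2). With 1 library left out, the value of Txnrd1 ranged from -1.35 to -0.89.

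Of 7 tested genes listed under glutathione synthesis, 1 fell and 0 rose, with all 7 values negative (median -1.76). That median rested largely on 1 library. The summed level of the 8 listed genes was 21437 CPM in Sham 1, against 3953 and 3751 in Sham 2 and Sham 3 and 1260, 1727 and 4408 in CKD. Without Sham 1 the median was -0.35 and 6 of 7 values were negative. The single gene called, Chac1, breaks glutathione down rather than making it. It had 1.93, 5.52 and 3.38 CPM in Sham and 0.820, 0.447 and 0.410 CPM in CKD, and fell by 2.67 ± 0.58 on the log2 scale (edgeR FDR-adjusted p = 0.0498), with a value of -2.27 without Sham 2 (edgeR FDR-adjusted p = 0.0774). Gss, glutathione synthetase, had 980, 358 and 212 CPM in Sham and 97.6, 102 and 221 CPM in CKD, with CKD 3 above Sham 3 (log2 fold change -1.88 ± 0.62, edgeR FDR-adjusted p = 0.121, or -1.07 without Sham 1). Of 7 tested genes of NADPH supply, 1 fell and 0 rose (median -0.26, or -0.02 without Sham 1, -0.48 without Sham 2 and -0.12 without Sham 3). Me1, the cytosolic malic enzyme, had 281, 97.0 and 149 CPM in Sham and 43.6, 35.0 and 55.9 CPM in CKD, and fell by 1.97 ± 0.41 on the log2 scale (edgeR FDR-adjusted p = 0.0478), with a value of -2.30 without Sham 2 (edgeR FDR-adjusted p = 0.0552). With 1 library left out, the value of Me1 ranged from -2.30 to -1.49. H6pd, the hexose phosphate dehydrogenase of the endoplasmic reticulum, had a log2 fold change of -0.87 ± 0.25 (edgeR FDR-adjusted p = 0.0851).

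Of 11 genes of selenoprotein supply, 0 passed in edgeR and 0 had an unadjusted p under 0.05 (median -0.26, or -0.14 without Sham 1 and -0.40 without Sham 2). Without Sham 2, 4 of 11 had an unadjusted p under 0.05 in edgeR, where 27% of all genes tested did. Library totals alone turned the medians of the thioredoxin, NADPH and selenoprotein lists to 0.14, 0.16 and 0.15. The median of all genes was then 0.41, so these lists still lay below it. The medians with other settings were added after the values were seen. Sepsecs, which makes selenocysteine on its tRNA, had a log2 fold change of -0.36 ± 0.22 and Selenbp1, a selenium-binding protein, one of -0.45 ± 0.36 (edgeR FDR-adjusted p = 0.362 and 0.484).

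Of 18 genes whose products make superoxide or hydrogen peroxide, 2 rose and 0 fell. Their median was 0.45, or 0.14 without Sham 2 and 0.71 without Sham 3. With library totals alone it was 0.86, beside 0.41 over all genes. Cybb, the catalytic subunit of the phagocyte NADPH oxidase, had 18.4, 4.19 and 11.1 CPM in Sham and 91.8, 70.7 and 41.9 CPM in CKD. Ncf1, a cytosolic subunit of the same oxidase, had 10.5, 4.82 and 5.84 CPM in Sham and 52.8, 39.4 and 19.5 CPM in CKD. Neither overlapped between groups, and they rose by log2 fold changes of 2.60 ± 0.54 and 2.40 ± 0.45 (edgeR FDR-adjusted p = 0.0475 and 0.0409), or 2.16 and 2.13 without Sham 2 (edgeR FDR-adjusted p = 0.0605 and 0.073). Both are genes of phagocytes, and the macrophage markers given above were higher in the same libraries; their part in this rise was not tested. All 5 calls in these lists were lost without Sham 2, without Sham 3, without CKD 1 and without CKD 2, where edgeR called 0 genes of the lists. In those settings it called only 2, 7, 0 and 0 of all genes tested. The direction of each of the 5 was kept in all 17 settings.

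**Figure D5:**
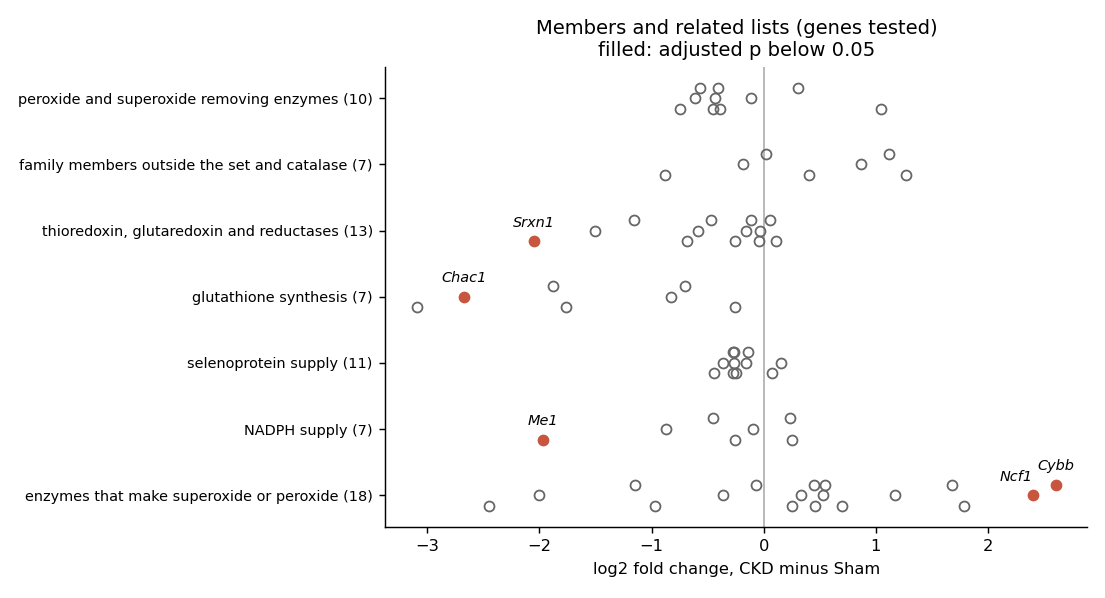
log2 fold change (CKD minus Sham) of every tested gene of the members and of 6 related lists, with the number of genes tested in parentheses. Filled points passed an adjusted p of 0.05: Srxn1, Chac1 and Me1 were lower in CKD, Ncf1 and Cybb higher, and 0 of the 10 members passed.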

How the data were processed

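RNA from renal tissue, isolated with TRIzol, was made into libraries with the VAHTS Universal V5 kit, per the labels' protocols. The authors deposited raw counts per gene, 1 column per library, with no normalization. The submitters' processing notes name fastp 0.20.1, HISAT2 2.1.0, HTSeq 0.11.2 and the build Rnor_6.0, without roles; strand setting and annotation are not given in the sources used here. Gene lengths are those the authors deposited.

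Genes were filtered with filterByExpr (minimum count 10, total 15), scaled by TMM and tested with edgeR 4.0.16 (robust quasi-likelihood, group as only term; R 4.3.3), with Benjamini-Hochberg adjustment over all 15371 genes and a threshold of 0.05. Replicates had a biological coefficient of variation of 37.5%. Intervals use the moderated t distribution. The model was tested on simulated data. DESeq2 1.42.0 and limma 3.58.1 served as alternatives. Named genes were all members, all tested genes of the family list, and of each other list the 2 with the smallest p and any called. Members and lists were chosen with earlier results of these data known. Over all 15 pairs, no library was a copy of another (chi-square per degree of freedom of 32.9 or more).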

Additional observations from a re-analysis of the deposited data

How the results depend on the processing

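All 10 members stayed short of the threshold in each of 16 alternatives. Without Sham 2, Sham 3, CKD 1 or CKD 2, few or no genes of the whole table passed (2, 7, 0 and 0), so those settings say little about the members. Signs turned for Gpx1 with library totals alone (0.30) and without Sham 3 (0.27, range -0.38 to 0.27 with 1 library left out), for Gpx3 without Sham 2 (-0.24, range -0.24 to 1.26), for Prdx1 with library totals alone (0.0108) and without Sham 1 (0.002, range -0.74 to 0.002), and for Prdx5 with library totals alone (0.0235). The 587 genes called overall became 2228 with library totals alone (91.9% higher in place of 70.0%), 2455 in DESeq2, 164 in limma-voom and 10 with a replicate block, and 0 (without CKD 1 or CKD 2) to 1711 (without Sham 1) when 1 library was left out. The 0 calls had 2330 and 2312 genes at an unadjusted p under 0.05 in edgeR. The 5 genes called in the related lists became 9, 13, 0 and 0 in the same 4 settings, and 0 to 8 with 1 library left out. Members without overlap numbered 3 (1 with CKD above Sham, 2 below), or 8 without Sham 2 (1 and 7) and 1 with library totals alone (1 and 0). Of all genes tested, 18.8% lay above and 12.4% below with all 6 libraries. These shares were 25.6% and 20.7% without Sham 2, and 39.9% and 3.81% with library totals alone. Both alternative settings were chosen after seeing the data. Limma-voom with library weights gave 187 higher and 301 lower genes. Same-numbered libraries correlated at -0.21 to 0.00 in their deviations from group means. With so few libraries this cannot show whether replicate numbers pair the samples, and the labels do not say. The cause of the loss of calls under the block was not tested. Each member had at least 1169 counts in every library, and the spread between Sham libraries was larger than that between CKD libraries for 9 of 10. Pairs of Sham libraries also differed more than pairs of CKD libraries over the whole table.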
